A study of Mus musculus with 8 samples.

Results

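The nuclear-encoded subunits of oxidative phosphorylation were followed in mouse myotubes that had received extracellular vesicles (EVs). They were taken by symbol: protein-coding genes beginning with Nduf (the Ndufaf assembly factors left out), Sdha to Sdhd, Uqcr, Cox4 to Cox8, or Atp5, without mitochondrially encoded, pseudogene or predicted-gene names. The rule used no measured value and found 85 of 35275 genes. These 85 were sorted into complexes by symbol alone. The symbols gave 38 genes for complex I, 4 for complex II, 8 for complex III, 18 for complex IV and 17 for complex V. A signal above 0 was present for 83 of them, and 79 reached a mean of 1 FPKM (fragments scaled by gene length and by the depth of the library) and were tested among 10981 genes.

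The myotubes, fused multinucleated muscle cells, were grown from primary progenitors of C57BL6/J mice, called MPCs in the labels, in DMEM with horse serum. One set received EVs of MPCs and the control set received EVs prepared from growth medium, for 12 h or 24 h, with 2 libraries in each of the 4 groups. All groups thus share the strain, the differentiation medium and exposure to a vesicle preparation, and no untreated myotubes are among the samples. Whether replicates were separate cultures is not stated in the labels, and the p-values therefore reflect library-to-library spread that could be technical only.

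Oxidative phosphorylation passes electrons from NADH (complex I) and succinate (complex II) through complex III and cytochrome c to oxygen at complex IV, and complex V, the ATP synthase, uses the resulting proton gradient to make ATP. Mitochondrial DNA encodes a part of every complex but complex II, while the other subunits are encoded in the nucleus and imported. Striated muscle replaces some complex IV subunits with heart and muscle isoforms (Cox6a2, Cox7a1 and Cox8b) in place of the widely expressed Cox6a1, Cox7a2 and Cox8a.

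Upstream sequences of these isoforms are shown first, because Cox8b, Cox7a1 and Cox6a2 had the largest log2 changes with MPC EVs at 24 h. Each is the 250 bases before the annotated start (RefSeq, GRCm38.p6), 5′ to 3′, and capitals mark a match on either strand to any of 8 motifs. Respiratory chain promoters are known for the motifs of NRF1 (GCGCANGCGC), YY1 (AAGATGGCG) and ERR (CAAGGTCA). The ETS family motif was searched as CCGGAAG. The motif of SP factors was searched as GGGCGG, and the CCAAT box by its own letters. For the E-box of muscle regulatory factors the letters were CANCTG. The core promoter box was searched as TATAAA. Cox6a1 lies on the minus strand at chr5:115348959-115349208, Cox8a on the minus strand at chr19:7217617-7217866, Cox8b on the minus strand at chr7:140900447-140900696, Cox7a1 on the plus strand at chr7:30183921-30184170 and Cox7a2 on the minus strand at chr9:79759854-79760103.
Cox6a1: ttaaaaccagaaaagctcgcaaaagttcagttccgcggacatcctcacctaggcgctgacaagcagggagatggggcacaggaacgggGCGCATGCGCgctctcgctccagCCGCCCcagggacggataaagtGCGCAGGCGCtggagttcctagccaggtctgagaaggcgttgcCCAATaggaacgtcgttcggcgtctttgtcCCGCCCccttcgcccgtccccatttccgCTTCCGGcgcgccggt
Cox8a: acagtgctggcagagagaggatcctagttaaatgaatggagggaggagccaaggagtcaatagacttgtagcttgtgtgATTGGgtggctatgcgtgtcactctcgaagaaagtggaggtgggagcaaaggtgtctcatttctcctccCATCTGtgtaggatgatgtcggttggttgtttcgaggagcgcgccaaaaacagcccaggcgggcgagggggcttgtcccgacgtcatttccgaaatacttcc
Cox8b: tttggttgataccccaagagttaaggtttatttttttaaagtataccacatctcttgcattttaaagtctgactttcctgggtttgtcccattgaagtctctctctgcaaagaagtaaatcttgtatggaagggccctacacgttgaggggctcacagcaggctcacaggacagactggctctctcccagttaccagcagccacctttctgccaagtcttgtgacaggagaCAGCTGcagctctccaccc
Cox7a1: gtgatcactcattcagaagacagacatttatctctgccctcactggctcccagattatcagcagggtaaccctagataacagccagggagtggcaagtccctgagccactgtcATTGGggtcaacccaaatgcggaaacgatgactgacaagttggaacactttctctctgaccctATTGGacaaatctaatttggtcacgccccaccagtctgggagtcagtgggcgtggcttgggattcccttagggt
Cox7a2: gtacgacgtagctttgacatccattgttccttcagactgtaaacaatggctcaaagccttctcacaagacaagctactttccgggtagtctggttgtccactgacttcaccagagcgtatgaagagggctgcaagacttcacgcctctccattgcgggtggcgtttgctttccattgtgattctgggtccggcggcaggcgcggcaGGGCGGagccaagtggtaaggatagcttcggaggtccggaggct
The widely expressed Cox6a1 holds NRF1, ETS, SP and CCAAT matches, Cox8a holds CCAAT and E-box matches, Cox8b holds an E-box match, Cox7a1 holds a CCAAT match and Cox7a2 an SP match. Cox6a2 is named only.

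Promoter windows of 300 bases, from 250 before to 50 after the start, were matched for 69 of the 85 members and gave 74 windows, set beside 32851 windows of all genes. NRF1, a regulator of respiratory chain genes, had its motif in 24.3% of the members' windows and in 4.6% of all windows. The ETS motif, bound by NRF2 (GABP) among others, stood in 21.6% against 8.86%, YY1 in 9.46% against 1.4%, and ERR, the motif of the estrogen-related receptors, in 5.41% against 1.56%. SP stood in 40.5% against 35.7%, CCAAT in 41.9% against 37.4%, TATAAA in 10.8% against 13.6% and the E-box, which myogenic factors bind, in 39.2% against 51.4%. Motifs can overlap one another, and a match is a description of these letters and not evidence that a factor binds there.

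The cells carried their label's markers: all 10 myotube genes were tested, and their summed level lay between 8824 and 14562 FPKM in the 8 libraries. None of the 5 endothelial, 5 macrophage and 5 adipocyte markers reached the filter, and 2 of 8 fibroblast markers and 2 of 6 pericyte and smooth muscle markers did. Progenitor markers summed to between 282 and 428 FPKM and proliferation markers to between 52.9 and 119.6 FPKM. Depth lay between 16324184 and 20187736 fragments a library. By GC content, control 12 h replicate 2 stood apart. Its values rose by 0.452 on the log2 scale per 10% GC, against slopes from -0.12 to 0.0746 in the other libraries. Mitochondrially encoded mRNAs took 1.56% of its FPKM against 2.09% to 4.81% elsewhere. By transcript length, replicate 2 of control and of MPC EV at 12 h stood apart in opposite directions. Their log2 slopes per doubling of length were -0.0893 and 0.088, against -0.022 to 0.0292 in the other libraries.

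The tested subunit genes were abundant and short. Their median level was 114 FPKM and the median length in the authors' table was 955 bases, against 3067 over the tested genes, with a median GC content of 50.2% against 49.8%. A member had between 15 and 49162 fragments in a library, with a median of 2190 against 599 over the tested genes. The median SD of log2 values between libraries of a group was 0.109, against 0.031 from counting error alone, and the spread exceeded counting error in 79 of 79. Intervals from counting would therefore be too narrow here.

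Levels spanned 183.6-fold among tested members, from Cox7a1 at 6.37 FPKM to Atp5b at 1170.5 FPKM. Atp5b is the catalytic beta subunit of the ATP synthase, and its value lay between 1108 and 1293 FPKM in the 8 libraries. Its partner Atp5a1, the alpha subunit, averaged 344 FPKM. In complex IV the highest was Cox5b at 457 FPKM, followed by Cox8a at 450.7, with a median of 228 over 14 members. The median was 158.7 FPKM over the 17 members of complex V, 135 over the 8 of complex III, 91.2 over the 4 of complex II and 87.5 over the 36 of complex I. Complex III ran from Uqcrh, the hinge protein, at 91.6 FPKM to Uqcr10, a small subunit, at 237 FPKM.

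**Figure D1:**
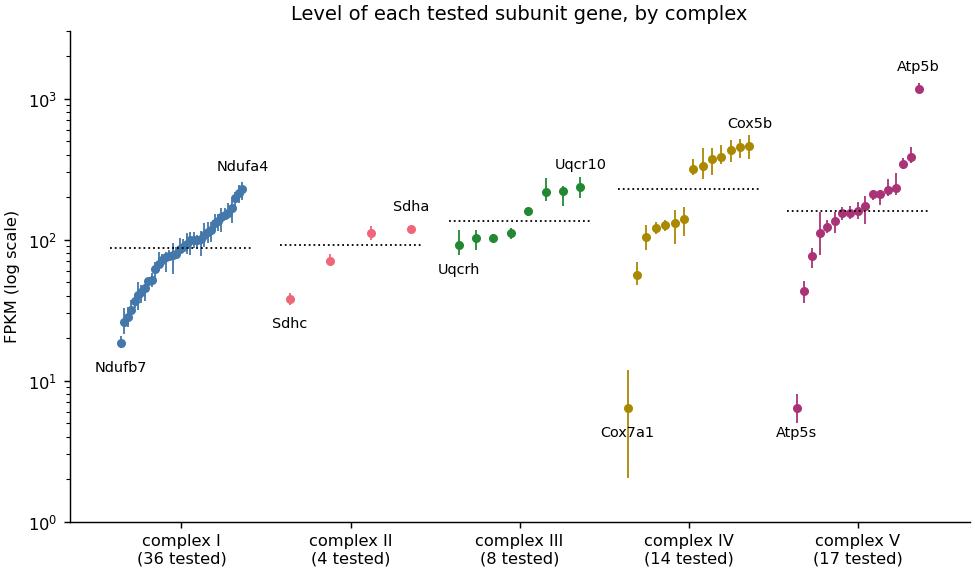
Level of each tested member (points, mean of 8 libraries; vertical lines, lowest to highest library; dotted lines, median of the complex) in FPKM on a log axis, ordered within each complex. Complex IV has a median of 228 FPKM and complex I of 87.5 FPKM. Cox7a1 and Atp5s lie far below the medians of the complexes that their symbols assign them to.

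Core subunits differed in level within complexes. In complex I, Ndufv1, which binds NADH, averaged 99.2 FPKM and Ndufs1, the largest iron-sulfur subunit, 50.5 FPKM. In complex II, Sdha, the flavoprotein that oxidizes succinate, averaged 118 FPKM and Sdhb, its iron-sulfur partner, 111.5 FPKM. In complex III, the core protein Uqcrc1 averaged 158 FPKM and the Rieske iron-sulfur protein Uqcrfs1 103 FPKM. None of these 6 genes passed the test for MPC EVs at either time.

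Levels per length rest on the lengths the authors used, which the deposited values reveal. For 26 tested members that length was over 1.5 times the shortest coding transcript of GENCODE vM21. Ndufb7, the lowest of complex I at 18.5 FPKM, would stand at 131.5 FPKM on its shortest coding transcript, and the c-ring gene Atp5g1 at 339.9 in place of 43.0 FPKM. The order of members by level therefore depends on the annotation. In all, 28 of the 85 members overlap another gene of the table, and the libraries did not keep strand, so reads in an overlap cannot be assigned to one of them.

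The 6 members under the filter were Ndufb2, Ndufa4l2, Cox4i2, Cox6b2, Cox7b2 and Cox8c. Ndufb2, an accessory subunit of complex I, was listed at a mean of 0.29 FPKM from 15 to 37 fragments, with an authors' length of 4369 bases against 455 for its coding transcript. It overlaps Braf and Gm16272, so its reads cannot be assigned to the subunit. Ndufa4l2 and Cox4i2, isoforms known from low oxygen and lung, had 9 to 20 and 0 to 6 fragments a library, and Cox6b2, a testis isoform, had 0 to 6. Cox7b2 and Cox8c, also testis isoforms, were at 0 in all libraries, which allows up to 3 fragments in each.

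Summed over the 85 members, the subunit mRNAs made up 2.56% to 2.98% of all FPKM in a library. The sum was 12949 ± 1329.8 FPKM (SD, n = 2) in control and 11393 ± 826 in MPC EV libraries at 12 h, and 12109 ± 484 and 12862 ± 743 at 24 h. The single libraries were at 12009 and 13889 in control and 11977 and 10809 in MPC EV at 12 h, and at 12452 and 11767 in control and 13388 and 12337 in MPC EV at 24 h. At 12 h both MPC EV sums lay below both controls, and at 24 h the MPC EV sum of replicate 2 lay below control replicate 1. As shares of all FPKM the order differed. At 12 h the shares were 2.66% and 2.96% in control and 2.73% and 2.56% in MPC EV libraries, and the groups overlapped. At 24 h they were 2.77% and 2.66% in control and 2.98% and 2.8% in MPC EV libraries, and the groups did not overlap. In bulk RNA, fewer cells of a type and less RNA per cell cannot be told apart.

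The members moved together from library to library. Control 12 h replicate 2 held the highest value for 55 of 79 members (69.6%, against 29.8% of tested genes), and MPC EV 12 h replicate 2 held the lowest for 52 (65.8%, against 19.9%). Within groups, 4 of 79 members were higher in replicate 1 than in replicate 2 of control 12 h, 78 in MPC EV 12 h, 61 in control 24 h and 66 in MPC EV 24 h, with median differences of -0.19, 0.16, 0.08 and 0.11 on the log2 scale. At 12 h, libraries of the same group thus differed in most members by about as much as the groups did.

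**Figure D2:**
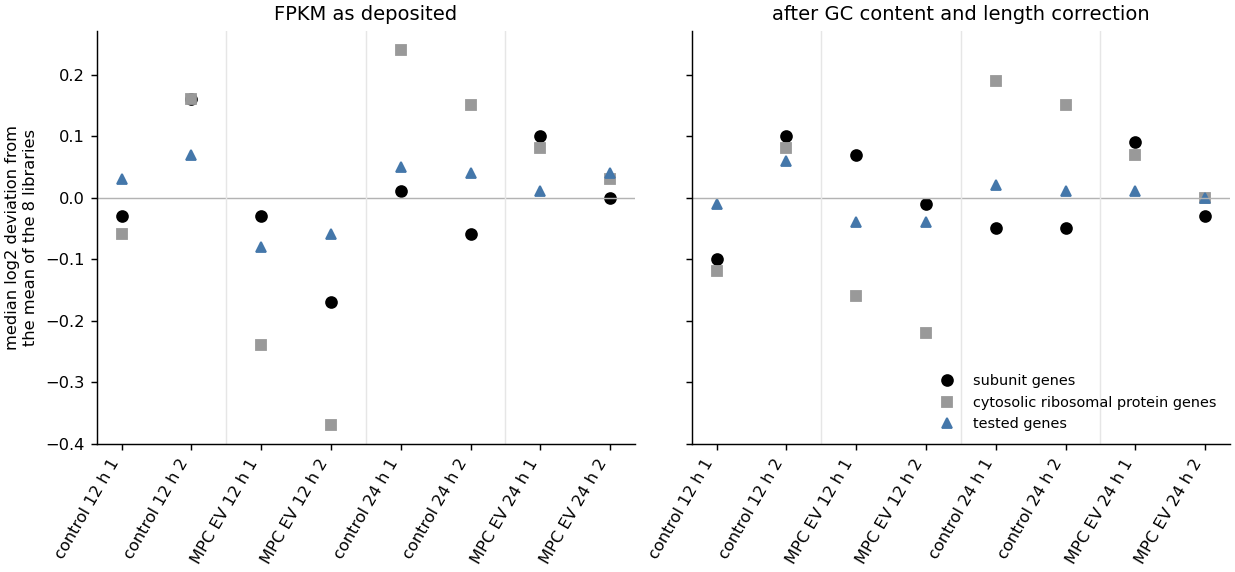
Median log2 deviation from the mean of the 8 libraries, per library, for the 79 tested members, 79 cytosolic ribosomal protein genes and all 10981 tested genes, as deposited (left) and after regression on GC content and transcript length (right). Among members, control 12 h replicate 2 lay at 0.16 and MPC EV 12 h replicate 2 at -0.17 as deposited, and at 0.10 and -0.01 after the correction.

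MPC EVs were compared with control EVs at 12 h first. Of 79 members, 0 were higher and 4 were lower by limma with Benjamini-Hochberg adjustment over all tested genes at 0.05. Over all tested genes 4.36% were called higher and 14.3% lower, so the members' share of lower calls was below the background. At an unadjusted p under 0.05 there were 1 higher and 17 lower members, against 8.79% and 29.2% of tested genes. The test by limma voom on recovered fragments called 0 higher and 2 lower, with 18 unadjusted. The members' median log2 change was -0.20, against -0.12 over all tested genes, and 72 of 79 lay below 0, against 63.4% of tested genes. The quartiles were -0.27 and -0.11, against -0.29 and 0.15 over all genes, so the members were more alike in their change than genes at large.

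Ndufc2, an accessory subunit of the complex I membrane arm, had the smallest adjusted p. It (ENSMUSG00000030647, GRCm38 chr7:97400003-97407802, plus strand) was at 115.5 and 131 FPKM in control and 93.5 and 88.5 in MPC EV libraries at 12 h, and the groups did not overlap. Its log2 change was -0.43 ± 0.08 (SE), with an adjusted p of 0.0191 by limma. At 24 h it was at 115 and 107 FPKM in control and 107 and 109 in MPC EV libraries, where the change was -0.04. Ndufc2 overlaps Gm16053, and reads in the overlap cannot be told apart without strand.

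The other lower members were Ndufa7 and Ndufa3, accessory subunits of complex I, and Cox7a2l, a Cox7a-like protein. Ndufa7 (ENSMUSG00000041881, chr17:33824572-33838317, plus strand) was at 171 and 192 FPKM in control and 153 and 130.3 in MPC EV libraries (change -0.36 ± 0.09, adjusted p = 0.0458). Ndufa3 (ENSMUSG00000035674, chr7:3617373-3620327, plus strand), which overlaps Tfpt, was at 72.4 and 82.0 FPKM in control and 64.5 and 58.4 in MPC EV libraries (change -0.33 ± 0.08, adjusted p = 0.0423). Cox7a2l (ENSMUSG00000024248, chr17:83501918-83517330, minus strand) was at 129 and 147.5 FPKM in control and 113 and 107 in MPC EV libraries (change -0.33 ± 0.08, adjusted p = 0.0407). In each of these genes both MPC EV libraries lay below both controls, and the highest 12 h value was that of control replicate 2.

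The calls and the medians depended on which libraries entered the fit. Without control 12 h replicate 2, the change of Ndufc2 was -0.34. The members' median was then -0.09, against -0.10 over all tested genes. Without control 12 h replicate 1 the members' median was -0.29, against -0.17 over all tested genes. Without either MPC EV 12 h library no member was called by limma, with 4 to 24 at an unadjusted p under 0.05. The 24 h libraries enter only the estimate of spread: without any of them the median stayed at -0.20, while 1 member was called without a control and none without an MPC EV library. Ndufc2 was called in 14 of 21 alternatives, Cox7a2l in 6, and Ndufa7 and Ndufa3 in 4 each. After correction of each library for GC content and length no member was lower. The median was then 0.03, against -0.05 over all tested genes. Cox6a2 (0.33, adjusted p = 0.0431) and Cox8b (0.58, adjusted p = 0.021) were called higher by limma after it. As deposited, their changes were -0.02 and 0.05.

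By complex, the median changes at 12 h were -0.20 in complex I, -0.11 in complex II, -0.15 in complex III, -0.26 in complex IV and -0.19 in complex V. Without control 12 h replicate 2 they were -0.09, -0.03, -0.08, -0.17 and -0.07, and with the GC and length correction between 0.02 and 0.04. The medians over all tested genes in these fits were -0.10 and -0.05. The catalytic and core genes Sdha (0.03), Uqcrc1 (0.03), Uqcrc2 (0.05), Atp5a1 (-0.03) and Atp5b (-0.05) had changes near 0, with Ndufs1 at 0.18 ± 0.07 (adjusted p = 0.108). Both MPC EV libraries lay below both controls for 44 of 79 members and above them for 1, against 45% and 17.1% of tested genes.

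At 24 h, MPC EVs gave 0 members higher and 0 lower by limma, against 2.61% and 0.956% of tested genes. At an unadjusted p under 0.05 there were 2 members, both higher, against 8.39% of tested genes higher and 5.83% lower, and limma voom on recovered fragments also called 0 and found 2 unadjusted. The median log2 change was 0.08, against -0.03 over all tested genes, and 66 of 79 members lay above 0, against 42.6% of tested genes. Both MPC EV libraries lay above both controls for 28 of 79 members, against 23.7% of tested genes, and below them for 4, against 30.2%. In complex V this held for 11 of 17 members above and 1 below, the median change was 0.11, and Atp5b was at 1111 and 1126 FPKM in control and 1238 and 1170.1 in MPC EV libraries.

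The 2 members with an unadjusted p under 0.05 were the muscle isoforms Cox6a2 and Cox8b. Cox6a2 (ENSMUSG00000030785, chr7:128205435-128206387, minus strand), which overlaps Itgad, was at 332 and 337 FPKM in control and 449 and 412 in MPC EV libraries at 24 h. The log2 change was 0.36 ± 0.07, with an adjusted p of 0.0603 by limma, above the threshold. Cox8b (ENSMUSG00000025488, chr7:140898945-140900446, minus strand) was at 98.8 and 93.5 FPKM in control and 156 and 129.6 in MPC EV libraries, a change of 0.56 ± 0.16 with an adjusted p of 0.152. A limma fit to the 24 h libraries alone called both higher, with adjusted p of 0.0235 for Cox6a2 and 0.0266 for Cox8b. Over the 21 alternatives at 24 h, the adjusted p stayed above the threshold in 17 for Cox6a2 and in 18 for Cox8b. Their widely expressed counterparts had changes of 0.07 (Cox6a1) and 0.08 (Cox8a).

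Outside complex IV, the members with the largest changes at 24 h did not pass the test. Ndufa11, a membrane-arm subunit of complex I that overlaps Vmac, was at 26.9 and 25.6 FPKM in control and 33.0 and 28.3 in MPC EV libraries (0.22 ± 0.10, adjusted p = 0.43, limma). Uqcr11, a small subunit of complex III, was at 201 and 187 FPKM in control and 227 and 222 in MPC EV libraries (0.21 ± 0.11, adjusted p = 0.521). In both genes the groups did not overlap, but neither passed the test. Atp5k, subunit e of the ATP synthase membrane part, was at 120.3 and 77.9 FPKM in control and 141 and 96.4 in MPC EV libraries (0.27 ± 0.32, adjusted p = 0.877), and here the replicates differed more than the groups.

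The widely expressed complex IV subunits had small changes at 24 h. Cox4i1, the largest nuclear-encoded subunit of the complex, was at 452 and 411 FPKM in control and 491.5 and 420.3 in MPC EV libraries (0.08 ± 0.12, adjusted p = 0.92, limma). Cox5a was at 123 and 93.9 FPKM in control and 127 and 99.9 in MPC EV libraries (0.06 ± 0.20, adjusted p = 0.959). The groups overlapped in both genes, and in each group replicate 1 was the higher. Cox7a2l was the lowest of complex IV, with a change of -0.15 ± 0.08 (adjusted p = 0.531).

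**Figure D3:**
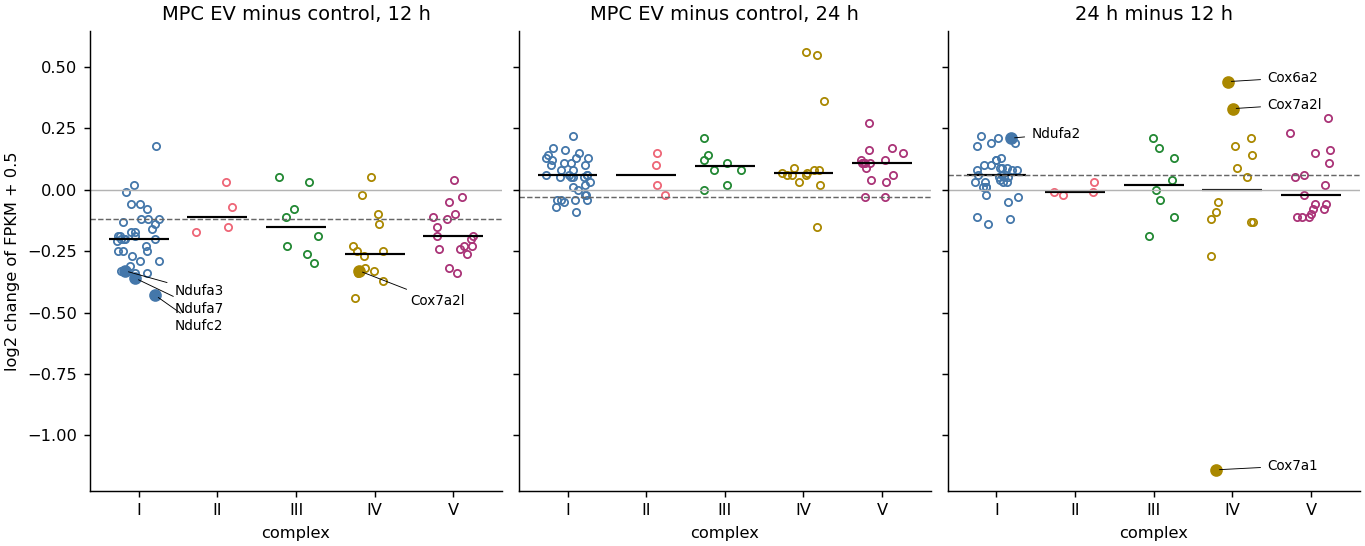
Log2 change of each tested member on the log2(FPKM + 0.5) scale, by complex, for MPC EV minus control at 12 h and 24 h and for 24 h minus 12 h. Filled points passed limma at an adjusted p under 0.05, bars are medians of a complex, and the dashed line is the median of all tested genes (-0.12, -0.03 and 0.06). At 24 h no point is filled, and the 3 highest are Cox8b, Cox7a1 and Cox6a2.

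The difference between the effects at 24 h and 12 h was tested directly. It gave 0 members and 0 genes in all in either direction (0% of tested genes higher and 0% lower), while 19 members had an unadjusted p under 0.05 by limma and 14 by limma voom, which also called 0. Over all tested genes 18.3% had an unadjusted p under 0.05 by limma. The members' median difference was 0.27, against 0.11 over all tested genes, and 77 of 79 lay above 0, against 63.6% of tested genes. After GC and length correction the median was 0.06, against 0.04 over all genes, and 1 member had an unadjusted p under 0.05. Without control 12 h replicate 1 the members' median difference was 0.38, against 0.16 over all tested genes. Without control 12 h replicate 2 it was 0.17, against 0.07. Over both times together 0 members were higher and 0 lower, against 4.2% and 4.34% of tested genes, with 3 at an unadjusted p under 0.05 by limma (26.2% of tested genes) and 3 by limma voom, which called 0. The members' median was then -0.06, equal to that of all tested genes, and without control 12 h replicate 2 it was 0.01 and Cox8b was called higher (0.42, adjusted p = 0.0468).

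Between 12 h and 24 h, with both treatments in the fit, 3 members rose and 1 fell, against 13.5% and 9.18% of tested genes. The median change was 0.04, against 0.06 over all genes. Without control 12 h replicate 2 the members' median was 0.10, against 0.06 over all genes. All 24 h libraries lay above all 12 h libraries for 5 members (Atp5f1, Cox6a2, Ndufa2, Ndufv1 and Uqcrq) and below them for Cox7a1, against 14.3% and 8.26% of tested genes. In the full set of libraries the calls with time were thus in single members, and the members' median lay next to that of other genes.

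Cox6a2 was at 267 and 297 FPKM in control and 281 and 274 in MPC EV libraries at 12 h, lower than in every 24 h library. It rose by 0.44 ± 0.09 on the log2 scale with time (adjusted p = 0.0113, limma), and its adjusted p stayed between 0.000781 and 0.0433 under the 20 alternatives. Cox7a2l was at 169 and 158 FPKM in control and 151 and 144 in MPC EV libraries at 24 h, and rose by 0.33 ± 0.07 (adjusted p = 0.0114), with adjusted p between 0.000618 and 0.0434 under the alternatives. Ndufa2, a small complex I subunit, was at 190.1 and 201 FPKM in control and 182 and 160.0 in MPC EV libraries at 12 h, and at 216.5 and 213 in control and 206.5 and 211 in MPC EV libraries at 24 h. Its rise of 0.21 ± 0.06 (adjusted p = 0.0427) was past the threshold in some alternatives and not in others, with adjusted p up to 0.132. Cox6a2 and Cox7a2l were called higher in every alternative.

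Cox7a1 was the member that fell with time. It (ENSMUSG00000074218, chr7:30184144-30186078, plus strand) was at 8.8 and 11.8 FPKM in control and 7.61 and 7.19 in MPC EV libraries at 12 h, from 60, 85, 48 and 48 fragments. At 24 h it was at 4.18 and 2.04 FPKM in control and 5.89 and 3.51 in MPC EV libraries, from 30, 15, 35 and 23 fragments, so every 24 h library was below every 12 h library. The log2 change was -1.14 ± 0.29 (adjusted p = 0.0275, limma), and the call was lost in 5 alternatives, among them those that left out replicate 1 of control or of MPC EV at 12 h, replicate 1 of control at 24 h, or replicate 2 of MPC EV at 24 h, with adjusted p up to 0.0819. With so few fragments, the change with MPC EVs could not be told from 0 (-0.44 ± 0.34 at 12 h and 0.55 ± 0.34 at 24 h).

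Shares within an isoform family compare members inside a library, so library-wide scaling cancels. Cox6a2 held 43.3% and 44.4% of the summed Cox6a1 and Cox6a2 FPKM in control and 46.7% and 49.0% in MPC EV libraries at 12 h. At 24 h it held 52.8% and 53.7% in control and 58.6% and 58.0% in MPC EV libraries. Both MPC EV libraries thus lay above both controls at each time, and all 24 h libraries above all 12 h libraries. At 12 h the log2 change of Cox6a2 itself was -0.02, and that of Cox6a1 was -0.25. Cox6a1 has a GC content of 62.7% and Cox6a2 of 52.8%, and the difference of their log2 changes with MPC EVs was 0.23 at 12 h as deposited and -0.05 after GC and length correction, but 0.30 and 0.38 at 24 h. With time it was 0.57 and lay between 0.51 and 0.60 under the alternatives.

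Cox8b held 22.0% and 22.9% of the Cox8 family in control and 27.3% and 25.1% in MPC EV libraries at 12 h, and 17.6% and 18.0% in control and 23.7% and 22.7% in MPC EV libraries at 24 h. Its share was higher in both MPC EV libraries at each time and lower in control at 24 h than at 12 h, opposite to Cox6a2. The FPKM of Cox8b at 12 h overlapped, at 125.3 and 154.3 in control and 162.8 and 126.7 in MPC EV libraries (log2 change 0.05). Cox8a was then at 444.4 and 519.7 in control and 433.2 and 377.9 in MPC EV libraries. The log2 change of Cox8b minus that of Cox8a was 0.29 at 12 h and 0.48 at 24 h, and lay between 0.21 and 0.38 and between 0.44 and 0.53 under the 21 alternatives at each time. Cox8a and Cox8b have GC contents of 58.5% and 55.8%. With 2 libraries against 2 at each time, the smallest two-sided p of an exact permutation within times is 0.0556, so the shares are given as values with no test.

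In the Cox7a family, Cox7a1 held 3.69% ± 0.477 and 3.12% ± 0.161 at 12 h and 1.1% ± 0.505 and 1.74% ± 0.639 at 24 h in control and MPC EV libraries (SD, n = 2). Cox7a2l held 49.9% ± 0.872 and 46.3% ± 2.27 at 12 h and 58.3% ± 0.906 and 54.4% ± 2.46 at 24 h, and Cox7a2 the rest. The 3 c-ring genes encode the same mature subunit of the ATP synthase rotor, and Atp5g3 held most of it, from 60.8% ± 0.91 in control 24 h to 67.7% ± 0.908 in MPC EV 12 h. Atp5g2 held 27.3% ± 2.27 and 25.3% ± 0.699 at 12 h and 32.0% ± 1.38 and 29.8% ± 1.62 at 24 h. The muscle isoforms did not move as a group: with time Cox6a2 rose, Cox7a1 fell and Cox8b had a change of -0.27 ± 0.14 that did not pass.

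**Figure D4:**
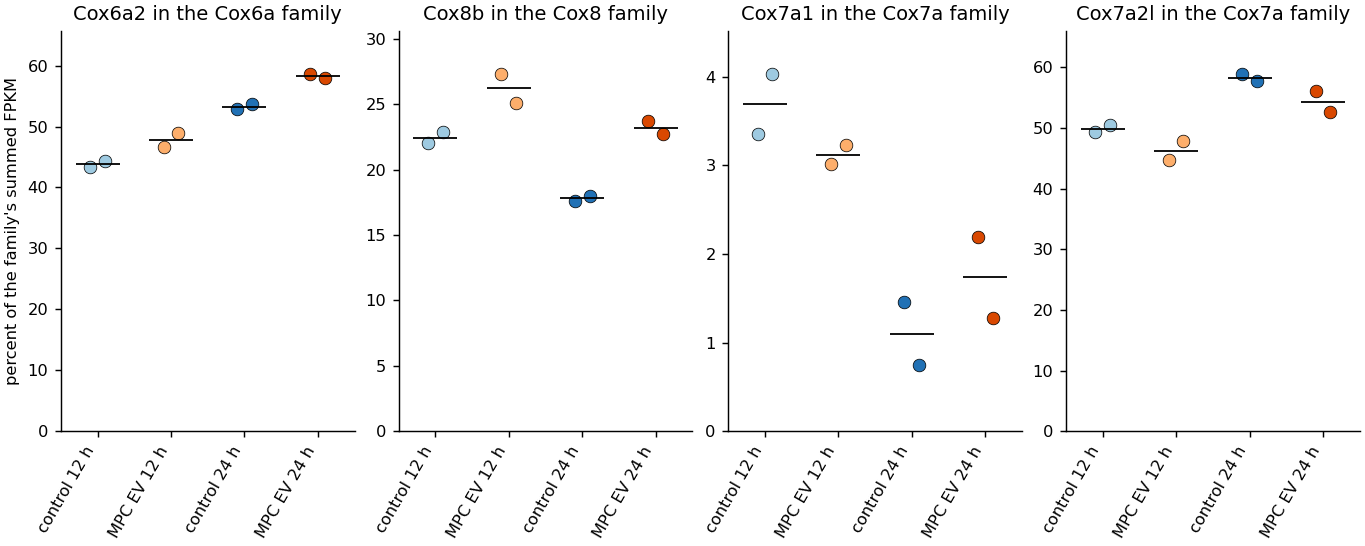
Share of an isoform in the summed FPKM of its family (percent), per library, with group means as bars. Cox6a2 reaches 58.0% to 58.6% in MPC EV 24 h libraries from 43.3% to 44.4% in control 12 h libraries. The share of Cox8b is higher with MPC EVs at both times, while its FPKM overlapped between the groups at 12 h.

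Of the myotube markers, 5 of 10 were called higher with MPC EVs at 12 h (median log2 change 0.72), against 4.36% of tested genes. At 12 h 2 of the 10 had changes below 0, the lowest Myog at -0.13. At 24 h 5 of 10 were called higher (median 0.73), against 2.61%. With time 7 of 10 fell (median -0.64), against 9.18% of tested genes called lower. Their summed level was 12195 and 14029.9 FPKM in the control libraries and 14082 and 14562 in the MPC EV libraries at 12 h, and 8824 and 9149.8 against 11390.1 and 12540.3 at 24 h. The myosin gene Myh3, for example, was at 409 and 463 FPKM in control and 1230.5 and 1234 in MPC EV libraries at 12 h. Proliferation markers summed to 110.5 and 119.6 FPKM in control against 52.9 and 63.7 with MPC EVs at 12 h, and to 104.1 and 106.0 against 76.8 and 88.2 at 24 h. At 12 h 3 of these 6 genes fell (Ccnb1, Cdk1 and Rrm2), against 14.3% of tested genes called lower. The other 3 had changes above 0 that did not pass, and the median was -0.05. The part of these markers in the isoform shares was not tested.

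Other mitochondrial genes were set beside the members. Of the 13 mitochondrially encoded mRNAs, 12 were tested and 0 passed for MPC EVs at 12 h, 24 h or both times by limma, with 0 at an unadjusted p under 0.05 in each and 0 by limma voom. Their median change was 0.49 at 12 h, opposite in sign to that of the members, and their level in control 12 h replicate 2 was the lowest of all. Their median log2 deviation from the mean of the libraries was 0.55 in control 12 h replicate 1 and -0.64 in replicate 2. In the MPC EV libraries at 12 h it was 0.43 and 0.37, between the controls. Both MPC EV libraries lay above both controls for 0 of 12 of these mRNAs and below them for 1. Among 41 tested assembly factors 1 was higher and 5 lower at 12 h (median -0.21). Among 13 enzymes of the tricarboxylic acid cycle 0 were higher and 1 lower (median -0.09), and of cytosolic ribosomal protein genes 37 of 79 were lower (median -0.35). Over all tested genes 4.36% were called higher and 14.3% lower at 12 h. At 24 h the median of assembly factors was 0.02, that of the cycle's enzymes 0.01 and that of ribosomal protein genes -0.13. Limma and limma voom called 1, 0 and 0 of them, and 2, 3 and 5 had an unadjusted p under 0.05. Over all tested genes 2.61% were called higher and 0.956% lower at 24 h, and 14.2% had an unadjusted p under 0.05 by limma.

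Cytochrome c (Cycs), which carries electrons from complex III to IV, had a change of 0.02 at 12 h and 0.10 at 24 h. Cyc1, the cytochrome c1 subunit that the symbol rule leaves out, had changes of -0.04 and 0.28 (adjusted p = 0.149). Of 15 regulators, Ppargc1a, the coactivator PGC-1alpha, rose at 12 h by 1.01 ± 0.16 (adjusted p = 0.0143) from 0.537 and 0.358 FPKM in control to 1.26 and 1.56 in MPC EV libraries, and was at 0.911 and 1.01 against 1.86 and 1.72 at 24 h (change 0.65, adjusted p = 0.107). Nrf1, whose motif is named above, fell at 12 h by 0.41 on the log2 scale (adjusted p = 0.0236), and Pprc1, a relative of PGC-1alpha, fell by 0.37 (adjusted p = 0.0411). At 24 h none of the 15 regulators was called by limma, with 3 at an unadjusted p under 0.05 (14.2% of tested genes), and limma voom called 0.

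**Figure D5:**
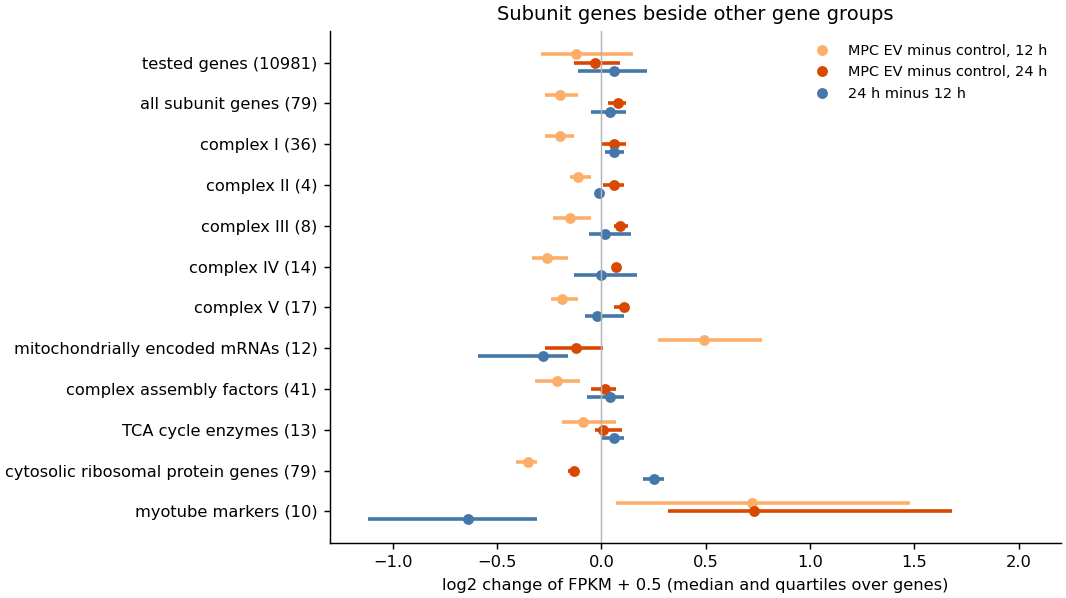
Median (points) and quartiles (lines) over genes of the log2 change on the log2(FPKM + 0.5) scale for the members, each complex and other gene groups, with the number of tested genes in parentheses. The members lie at -0.20, 0.08 and 0.04, and myotube markers at 0.72, 0.73 and -0.64, for MPC EVs at 12 h, at 24 h and for time.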

How the data were processed

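RNA of 8 myotube samples (4 groups of 2) was sequenced as paired ends without strand information, per the labels' protocols. The authors deposited FPKM values per gene. HISAT2, DESeq2 (version 2) and the mm10 build are named in the submitters' processing notes, and the counting tool and annotation are not given in the sources that were used. Whole fragments were recovered from the deposited FPKM for 100% of 21406 genes above 0 (tolerance 0.02), giving depth and gene length.

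limma 3.58.1 (R 4.3.3) was fitted to log2(FPKM + 0.5) of genes averaging 1 FPKM or more, with a variance trend and Benjamini-Hochberg adjustment at 0.05. The 4-group model (4 residual degrees of freedom) gave MPC EV effects at each time and their difference, and an additive model (5) gave the effect over both times and of time. Fold changes of low genes are understated by the pseudocount. Fits were checked on simulated data with noise drawn independently for each gene and library. Shifts shared by the genes of a library, and changes as small as those of the members called at 12 h, were not simulated. Tables and figures used Python 3.11.15. Coordinates are GRCm38, GENCODE vM21.

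The members and lists were chosen with earlier results of these data known. Named genes were the members past the threshold, the largest change in each direction per complex, the isoform pairs, core subunits, the most and least abundant per complex, and members under the filter. Alternatives covered pseudocounts of 0.1 and 1, filters of 0.1 and 5 FPKM or none, scaling, GC and length correction, the replicate block, left-out libraries, single-time fits, and voom, which was added after seeing the data, as was the shortest coding length.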

Additional observations from a re-analysis of the deposited data

How the results depend on the processing

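Of 4590 alternative values for named members, 4121 kept direction and side of the threshold, 77 newly passed and 75 no longer passed. The sign changed in 316 that passed the test in neither fit and in 1 that passed in one of them: Cox6a2 with MPC EVs at 12 h, 0.33 with GC and length correction against -0.02. Of the sign changes 132 came with GC and length correction, with or without the block, and 84 were at 12 h. Cox6a1, for example, was at -0.25 and reached 0.38. The cause was not tested. Median-ratio scaling moved the all-gene median at 12 h from -0.12 to 0.00.

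Lower members at 12 h numbered 4, and 2 with a filter of 0.1 FPKM, 1 with no filter, 1 with median-ratio scaling, 1 with quantile normalization, 1 without the variance trend, 0 with GC and length correction, 0 in a fit of 12 h alone and 2 with voom. With a library left out they ran from 0 to 45, the highest without control 12 h replicate 1. Higher members at 12 h were 0, and 1 with a filter of 0.1 FPKM, 1 with no filter, 1 with quantile normalization, 2 with GC and length correction and 0 to 1 with a library left out. At 24 h higher members were 0, and 1 with quantile normalization, 2 in a fit of 24 h alone and 0 to 2 with a library left out (2 without either control 12 h library).

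For the difference of effects, 0 were higher, and 0 to 38 with a library left out (38 without control 12 h replicate 1). Over both times 0 were higher, and 1 with a filter of 0.1 FPKM, 1 with no filter, 2 with GC and length correction and 0 to 1 with a library left out, while 0 were lower and 1 with quantile normalization. With time 3 rose, and 6 with quantile normalization and 2 to 15 with a library left out (15 without control 12 h replicate 2), and 1 fell, and 0 with no filter, 2 with median-ratio scaling, 3 with quantile normalization, 3 with GC and length correction and 0 to 1 with a library left out.

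The members' median at 12 h was -0.20, and -0.08 with median-ratio scaling, 0.03 with GC and length correction and -0.29 to -0.09 with a library left out. The 12 h median over all tested genes was -0.12, and -0.05 with GC and length correction and -0.17 to -0.10 with a library left out. Over both times the members' median was -0.06, and 0.06 with GC and length correction. For the difference it was 0.27, and 0.15 with quantile normalization, 0.06 with GC and length correction and 0.17 to 0.38 with a library left out. With a library left out it ran from 0.02 to 0.14 at 24 h and from -0.02 to 0.10 with time.

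The replicate block left 1 member lower at 12 h (Ndufc2) and 2 higher and 1 lower with time. The replicate block with GC and length correction gave 1 higher and 0 lower at 12 h, 2 higher over both times and 2 lower with time, with medians of 0.03 at 12 h, 0.06 over both times and 0.06 for the difference. Deviations of same-numbered libraries correlated at -0.01 at 12 h and 0.24 at 24 h, at -0.27 between control groups and 0.07 between MPC EV groups, so the numbers were not taken as pairs.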
